A study of Mus musculus with 7 samples.

Results

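Lat2, Pik3cg, Adap1 and Plekho1 encode proteins that sit on the phosphoinositide 3-kinase (PI3K) side of receptor signalling, and the transcripts of all 4 were lower in activated B cells of Batf KO mice. The genes were picked by symbol from the deposited comparison of the genotypes, because of the size of their difference there, and all 4 of the 4 symbols were found among its 752 genes. The samples were B cells taken from the spleen on magnetic columns, from 3 Batf KO mice and 4 wild type mice, both with the C57BL/6J strain background. Both genotypes were kept for 6 h in lipopolysaccharide (LPS) at 20 µg/mL and interleukin-4 (IL-4) at 20 ng/mL, agents that together activate B cells and start class switching, so no unstimulated level was measured. The sources used here do not give how the Batf allele was made, how the columns selected B cells, or the age and sex of the mice. Nothing in the sources states whether the cells of different mice were cultured on the same day, so values within a group may share more than genotype. The question put by the design is which transcripts depend on genotype at an early time of activation, Batf being a basic leucine zipper factor of the AP-1 family.

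PI3K enzymes phosphorylate the membrane lipid PIP2 to PIP3, which recruits proteins with a pleckstrin homology (PH) domain, among them the kinases AKT and BTK, to the inner face of the membrane. LAT2, also called NTAL or LAB, is a transmembrane adaptor of B cells, mast cells and monocytes that is phosphorylated on tyrosines after receptor engagement and then binds GRB2. Pik3cg encodes p110γ, the class IB catalytic subunit, which is switched on by G protein βγ subunits and Ras. ADAP1, also called centaurin alpha 1, binds PIP3 through its PH domains and acts on the small GTPase ARF6, work known mainly from neurons. PLEKHO1, also called CKIP-1, is a PH domain protein known to bind casein kinase CK2 and AKT.

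The depth behind each value, taken as effective library size, ran between 23675459 and 30844920 reads for the Batf KO mice and between 24891094 and 44728937 reads for the wild type mice. The targeted gene Batf was at 63.4 to 70.3 CPM (counts per 1000000 reads) in the Batf KO libraries, against 307 to 333 CPM in the wild type libraries, so each library matched its label. A gene count does not show which exons the remaining Batf reads covered. Of 15 B cell markers, Ms4a1, Blnk and Ighm were in the table, and they did not share 1 direction. The least abundant, Blnk, was higher, at 189 to 221 CPM in Batf KO and 159 to 168 CPM in wild type. Ms4a1 was also higher, with a mean of 879 CPM in Batf KO and 580 CPM in wild type. Ighm was lower, with a mean of 1202 CPM in Batf KO and 1634 CPM in wild type. The table holds genes that passed the authors' false discovery rate (FDR) of 0.05, so the other markers have no value here.

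Positions were read from the GENCODE M21 annotation of GRCm38 (mm10), and all 4 genes lie on the minus strand. Lat2 (ENSMUSG00000040751) spans chromosome 5, 134600022 to 134615025, and Adap1 (ENSMUSG00000056413) spans chromosome 5, 139271876 to 139325622. Pik3cg (ENSMUSG00000020573) spans chromosome 12, 32173473 to 32208659, and Plekho1 (ENSMUSG00000015745) spans chromosome 3, 95988429 to 95996001. The end of Lat2 runs into Rfc2, a replication factor gene on the opposite strand, and the exons of both share 952 of the 2621 exonic bases of Lat2 (36.3%). The sources used here do not give the strand setting of the counting, so reads from that stretch cannot be assigned to Lat2 or Rfc2. Rfc2 was not in the table. Adap1 contains the small RNA gene Gm27316 in an intron, with no shared exonic base.

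The start regions are shown because the transcripts were lower together while the sequences around their starts differ in composition. RefSeq windows of 250 bases before to 50 bases after a gene start (GRCm38.p6) were held for 3 of the 4 members. Pik3cg had 2 starts, and Lat2 had no window. The part outside GENCODE exons of the member is printed on the minus strand, 5′ to 3′, with each CpG in capitals.
Pik3cg, chr12:32208660-32208909: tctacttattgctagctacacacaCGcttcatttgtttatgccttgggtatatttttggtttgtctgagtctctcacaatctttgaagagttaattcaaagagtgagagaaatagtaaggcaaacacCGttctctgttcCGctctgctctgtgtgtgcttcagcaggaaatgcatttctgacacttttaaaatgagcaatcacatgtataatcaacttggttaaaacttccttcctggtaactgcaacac
Adap1, chr5:139325623-139325714: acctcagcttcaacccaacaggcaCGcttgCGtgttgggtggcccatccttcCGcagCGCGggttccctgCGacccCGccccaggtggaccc
Plekho1, chr3:95996002-95996089: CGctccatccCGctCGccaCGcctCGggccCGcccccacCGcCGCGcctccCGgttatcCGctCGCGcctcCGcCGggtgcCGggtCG

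The printed stretch of Pik3cg held 3 CpG in 250 bases, that of Adap1 7 in 92 bases and that of Plekho1 17 in 88 bases. Over the full window, GC content was 40.7% at the first Pik3cg start, 79.0% at Adap1 and 81.3% at Plekho1, against a median of 52.7% over 32851 RefSeq windows. The Plekho1 window was richer in GC than 99.3% of windows, and the first Pik3cg window was richer than 11.4% of them. Both strands of the windows were searched for the AP-1 site TGANTCA, the related site TGACGTCA, and the AP-1 and IRF composite element (AICE), with and without a spacer of 4 bases. Both forms of AICE contain the AP-1 site. The 4 member windows leave out Lat2, which was not searched, and 2 of them belong to Pik3cg and overlap. None of the 4 held a match, and over all windows 7.81%, 1.79%, 0.119% and 0.125% did, in the order given. This says only that these letters are not in these windows.

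Lat2, the adaptor, had the largest difference of the members. Its level was 7.16, 6.68 and 6.88 CPM in the Batf KO libraries, against 39.8, 39.6, 49.7 and 51.6 CPM in the wild type libraries. The Batf KO libraries lay close together and far below every wild type library, and the wild type libraries formed a lower pair (replicates 1 and 2) and a higher pair (replicates 3 and 4). The mean was 6.91 ± 0.24 CPM in Batf KO (SD, n = 3) and 45.2 ± 6.37 CPM in wild type (SD, n = 4), so that Batf KO kept 15.3% of the wild type level. The fitted log2 fold change of Batf KO over wild type was -2.71 (SE 0.13). Against wild type replicates 1 and 2 alone it was -2.52, and against replicates 3 and 4 alone -2.87.

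Pik3cg, the kinase subunit, had the fewest reads of the members, 171 in the Batf KO libraries together and 1426 in the wild type libraries together. Its level was 1.91, 2.04 and 2.41 CPM in Batf KO, against 12.0, 8.80, 8.29 and 12.5 CPM in wild type. No Batf KO library reached the lowest wild type library, and wild type replicates 1 and 4 were above replicates 2 and 3. The mean was 2.12 ± 0.26 CPM in Batf KO (SD, n = 3) and 10.4 ± 2.17 CPM in wild type (SD, n = 4), a remaining level of 20.4%. The fitted log2 fold change was -2.30 (SE 0.21).

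The genes of the PH domain proteins, Adap1 and Plekho1, differed by less. Adap1 was at 15.2, 13.2 and 14.1 CPM in Batf KO, against 36.9, 34.9, 41.4 and 39.3 CPM in wild type. Plekho1 was at 17.3, 15.4 and 16.6 CPM in Batf KO, against 46.1, 44.7, 39.9 and 42.8 CPM in wild type. In both genes the groups were well apart and neither group had a library that stood off from the others. Adap1 averaged 14.2 ± 1.03 CPM in Batf KO (SD, n = 3) and 38.1 ± 2.82 CPM in wild type (SD, n = 4), with a fitted log2 fold change of -1.43 (SE 0.10). Plekho1 averaged 16.5 ± 0.97 CPM in Batf KO (SD, n = 3) and 43.4 ± 2.69 CPM in wild type (SD, n = 4), with a fitted log2 fold change of -1.40 (SE 0.09). Batf KO kept 37.2% of the wild type level of Adap1 and 38.0% of that of Plekho1.

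**Figure D1:**
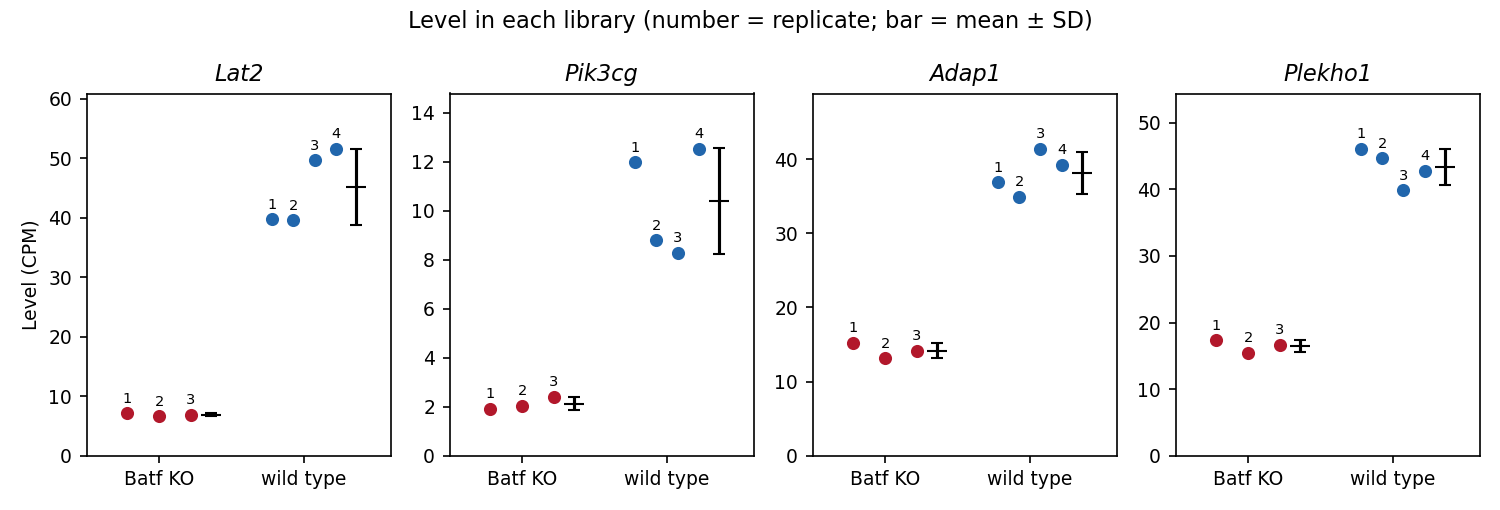
Level in CPM (y axis, linear from 0, own scale for each gene) of Lat2, Pik3cg, Adap1 and Plekho1 in 3 Batf KO and 4 wild type libraries (points, numbered by replicate), with the mean and SD of each group as a bar. In each panel all Batf KO points lie below all wild type points, and the wild type Lat2 points form a pair near 39.6 to 39.8 CPM and a pair at 49.7 and 51.6 CPM.

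These differences are the values on which the genes were picked, so they are given as a description with no test. In the authors' deposited table the FDR was 1.83e-71 for Lat2, 1.25e-20 for Pik3cg, 2.31e-28 for Adap1 and 1.55e-30 for Plekho1, with Lat2 in place 4 of 752 by FDR. All 4 members were listed as at least 2-fold lower, as were 0.573% of the 19734 genes the authors tested. At any size, 1.86% were listed as lower and 1.95% as higher. The groups did not overlap in any of the 4 members, nor, with Batf KO lower, in 48.6% of the 667 table genes with a mean of at least 1 CPM. In either direction, 96.1% of those genes had groups that did not overlap. The table was made from genes that differ between the same libraries, so nothing is read from these counts. In RNA from a whole culture, fewer cells of a type and less RNA per cell cannot be told apart.

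Scaled to the length of the longest coding transcript, the order of the members differed between the genotypes. In Batf KO the order was Plekho1 (8.53 ± 0.50 CPM per kb), Adap1 (5.55 ± 0.40), Lat2 (4.02 ± 0.14) and Pik3cg (0.36 ± 0.04; SD, n = 3), and no neighbours in this order overlapped. In wild type Lat2 was first (26.3 ± 3.71 CPM per kb), followed by Plekho1 (22.5 ± 1.39), Adap1 (14.9 ± 1.10) and Pik3cg (1.77 ± 0.37; SD, n = 4). There Lat2 and Plekho1 overlapped, with Lat2 at 23.1 to 30.1 and Plekho1 at 20.7 to 23.9 CPM per kb. Plekho1 was slightly the higher of the pair in wild type replicates 1 and 2, and Lat2 was the higher in replicates 3 and 4. The transcript lengths used were 1717 bases for Lat2, 5871 for Pik3cg, 2557 for Adap1 and 1931 for Plekho1, and which transcripts these cells used was not measured. The place of Lat2 in either order is uncertain, because reads from the bases it shares with Rfc2 cannot be assigned.

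**Figure D2:**
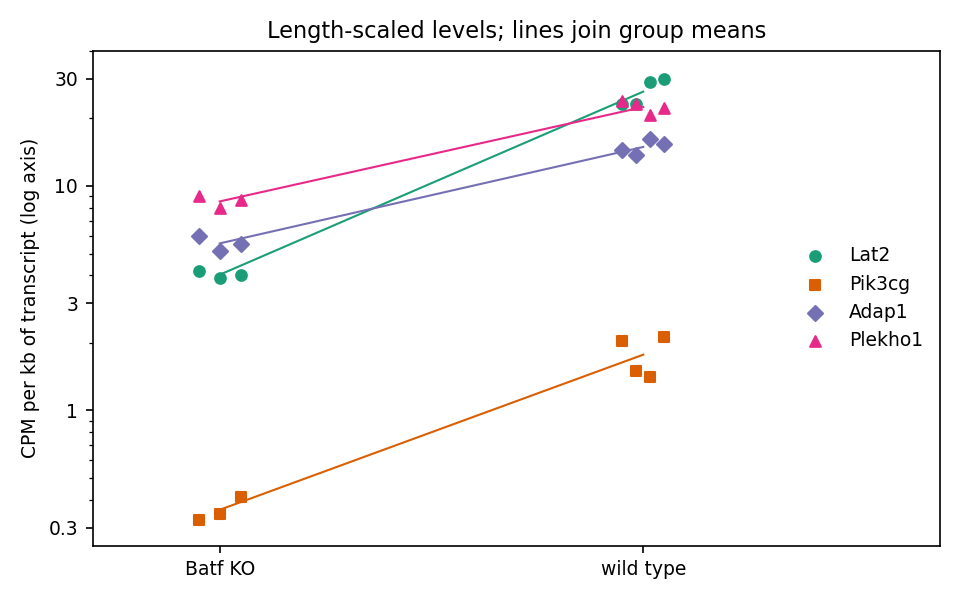
Length-scaled level in CPM per kb of transcript (y axis, log scale) of the 4 genes in Batf KO and wild type libraries (points; lines join group means). Lat2 lies below Plekho1 and Adap1 in Batf KO at 4.02 CPM per kb and above both in the wild type means at 26.3, and Pik3cg is lowest in both.

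Among wild type mice the levels of Lat2 and Pik3cg were more spread than those of the PH domain genes. In wild type the coefficient of variation was 14.1% for Lat2 and 20.8% for Pik3cg, against 7.40% for Adap1 and 6.19% for Plekho1, beside a median of 10.5% over the 667 genes. Counting error alone would give 2.60% for Lat2, 5.42% for Pik3cg, 2.82% for Adap1 and 2.64% for Plekho1. In Batf KO the coefficient was 3.53% for Lat2, 12.1% for Pik3cg, 7.28% for Adap1 and 5.86% for Plekho1, beside a median of 8.89%. Counting error there would be 7.35%, 13.2%, 5.14% and 4.77% in the same gene order. With 3 or 4 libraries a group, these spreads are themselves imprecise, and no difference between them was tested.

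Within wild type the members differed in which libraries were high. There, Lat2 and Adap1 were above their group mean in replicates 3 and 4 and below it in replicates 1 and 2. Plekho1 was below its mean in replicate 3, by -0.12 on the log2(CPM + 0.5) scale, and near it in replicate 4 at -0.02, and Pik3cg was above its mean in replicates 1 and 4, by 0.22 and 0.28. In Batf KO the largest distance from a mean was 0.15, for Pik3cg in replicate 3, and the order of the replicates is not read, since these differences are of the size of counting error. Across the 667 table genes with a mean of at least 1 CPM, wild type replicates 1 and 2 were the likest pair. Their median difference was 0.114 on that scale. Replicates 3 and 4 followed with 0.146, little below the 0.156 to 0.181 of other wild type pairs. Batf KO pairs gave 0.128 to 0.159. The sample titles carry numbers whose meaning the sources used here do not give. Those of wild type replicates 1 and 2 lie next to the Batf KO numbers, and those of replicates 3 and 4 lie further off. The levels of Lat2 and Adap1 split in the same way, and those of Pik3cg did not. Plekho1 ran in the opposite direction to Lat2, with replicate 4 near its mean. Against wild type replicates 1 and 2 alone, the fitted log2 fold change was -2.30 for Pik3cg, -1.34 for Adap1 and -1.46 for Plekho1, beside the -2.52 given for Lat2. What sets the wild type libraries apart in this way was not tested.

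**Figure D3:**
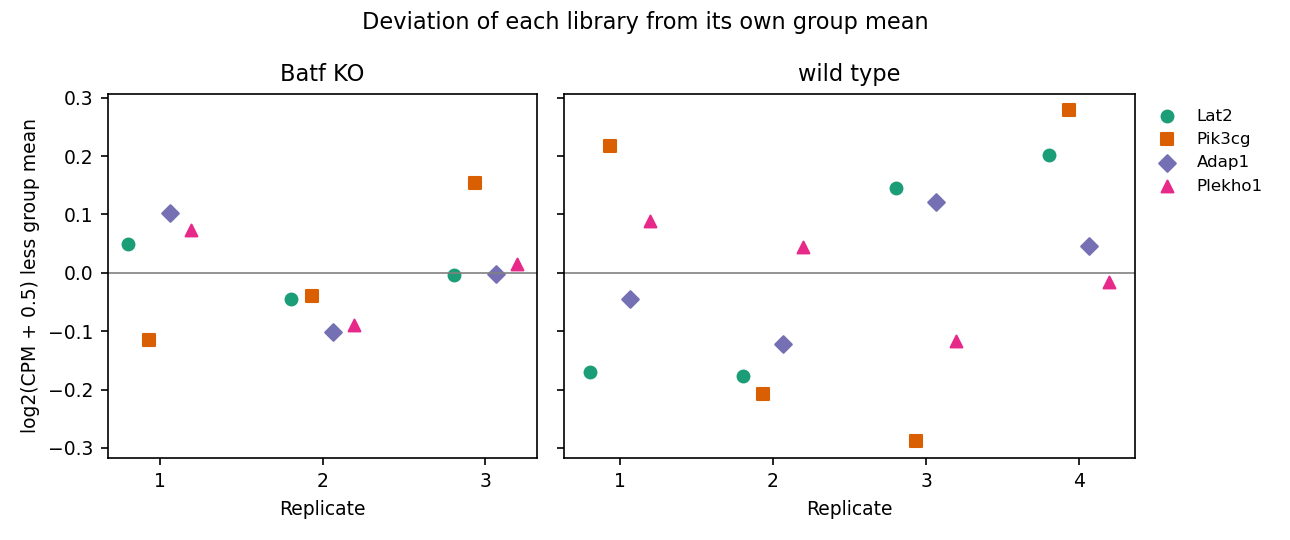
Difference of each library from the mean of its own group on the log2(CPM + 0.5) scale (y axis) for the 4 genes, by replicate (x axis), with Batf KO in the left panel and wild type in the right. Lat2 and Adap1 are above 0 in wild type replicates 3 and 4, where Plekho1 is at -0.12 and -0.02, and Pik3cg is above 0 in replicates 1 and 4.

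The genes with the likest profile were found by the root mean square difference of log2(CPM + 0.5), each profile centred on its mean over the 7 libraries. For Lat2 these were Insm1, a zinc finger factor gene (0.12), Batf (0.22) and Ighg3, the IgG3 constant gene (0.29), beside a median of 1.45 over the table. Insm1 was at 17.7, 15.7 and 16.2 CPM in Batf KO, against 106, 112, 113 and 134 CPM in wild type. Its highest value was in wild type replicate 4, as for Lat2, but it did not form the lower and higher pairs of Lat2. For Pik3cg the likest were the kinase gene Lrrk2 (0.19), Plbd1 (0.20) and Slamf6, a SLAM family receptor gene (0.21). Lrrk2 was at 2.92, 4.56 and 5.20 CPM in Batf KO, against 25.7, 15.1, 14.3 and 20.2 CPM in wild type. Its wild type replicates 1 and 4 were the higher ones, as they were for Pik3cg. For Adap1 the likest were the calcium channel gene Cacna1b (0.10), Mapre2, which encodes a microtubule end-binding protein (0.11), and Tnfrsf13b, the gene of the receptor TACI (0.11). For Plekho1 they were Mapre2 (0.08), Cacna1b (0.09) and Adam19, a metalloprotease gene (0.10). Adap1 and Plekho1 were each in place 4 of the other's order, with a difference of 0.12. Lat2 and Pik3cg were less alike, with a difference of 0.37. This measure uses the difference between genotypes, so genes with a like fold change come first by construction.

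The other genes of the pathway that were in the table did not share 1 direction. Of 247 genes in 7 lists that leave out the 4 members, 27 were listed (10.9%), 17 higher and 10 lower in Batf KO, against 3.81% of all genes the authors tested. With a stricter cut of 0.01, set here on the authors' FDR, 9 were higher and 9 lower. The median log2 fold change of the 27 in the authors' deposited table was 0.33, beside a median of 0.31 over all 752 genes. The lists were chosen with these results known, so nothing is read from the difference in shares.

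Among 15 other PI3K subunit and regulator genes, only Pik3r3, a class IA regulatory subunit gene, was listed. It was higher in Batf KO, at 1.69, 2.08 and 1.35 CPM, against 0.88, 0.76, 0.76 and 0.96 CPM in wild type. Pik3r5 and Pik3r6, the regulatory partners of p110γ, and Pik3cd, the catalytic subunit most used in B cells, were not listed and have no value here. Of 36 lipid kinase and phosphatase genes, Pip5k1c, whose product makes PIP2, was lower, at 53.5 ± 0.88 CPM in Batf KO (SD, n = 3) and 87.5 ± 13.4 CPM in wild type (SD, n = 4). Tns1, which encodes a focal adhesion protein, was higher, at 9.81 ± 1.72 CPM in Batf KO (SD, n = 3) and 3.64 ± 0.97 CPM in wild type (SD, n = 4).

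Downstream of PIP3, 1 of 36 AKT, mTOR and FOXO genes was listed. This was Foxo1, the FOXO factor that AKT holds out of the nucleus, at 131, 133 and 120 CPM in Batf KO, against 195, 199, 179 and 210 CPM in wild type, and the groups were apart. Of 16 FOXO target genes, 4 were listed, 2 higher, Ccr7 and Bcl6, and 2 lower, Irs2 among them. Irs2, an adaptor gene of insulin and IL-4 receptor signalling, was at 7.78 ± 1.65 CPM in Batf KO (SD, n = 3) and 17.1 ± 1.20 CPM in wild type (SD, n = 4).

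Next to Lat2 in antigen receptor signalling, 10 of 57 other genes were listed, 7 higher and 3 lower, and each differed by less than Lat2. The kinase genes Lyn, Blk and Tec were higher by 1.36-fold, 1.44-fold and 1.29-fold, and the adaptor gene Blnk by 1.26-fold. Plcg2, Cd72 and Cblb, a ubiquitin ligase gene that restrains receptor signalling, were higher by 1.25-fold, 1.48-fold and 1.69-fold. Grap, which encodes an adaptor of the GRB2 family, was lower at 782 ± 47.3 CPM in Batf KO (SD, n = 3) and 1115 ± 81.7 CPM in wild type (SD, n = 4). Pag1, a transmembrane adaptor gene of lipid rafts, was lower by 1.44-fold and Prkcb by 1.23-fold. Lat, Lax1 and Sit1, which encode other transmembrane adaptors, were not listed.

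Among 53 other PH domain and Arf regulator genes, 4 were listed. Plekho2, the paralogue of Plekho1, was lower, at 33.0, 32.6 and 39.3 CPM in Batf KO, against 52.5, 52.2, 75.8 and 93.6 CPM in wild type. Its wild type libraries spread widely, with replicates 3 and 4 above replicates 1 and 2, the order seen for Lat2 and not for Plekho1. Cyth1, an exchange factor gene for ARF proteins, was higher by 1.45-fold, Iqsec1, another such gene, by 1.25-fold, and Plekha2, which encodes a PH domain protein, by 1.28-fold. Of 37 genes of G protein and Ras input to p110γ, 6 were listed. The receptor genes Ccr7 and Gpr183 were higher by 1.61-fold and 1.27-fold, Rras2 by 1.24-fold and Gng11, a γ subunit gene under 1.30 CPM in every library, by 2.72-fold. The receptor genes Ccr6 and P2ry10 were lower by 2.12-fold and 1.41-fold.

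**Figure D4:**
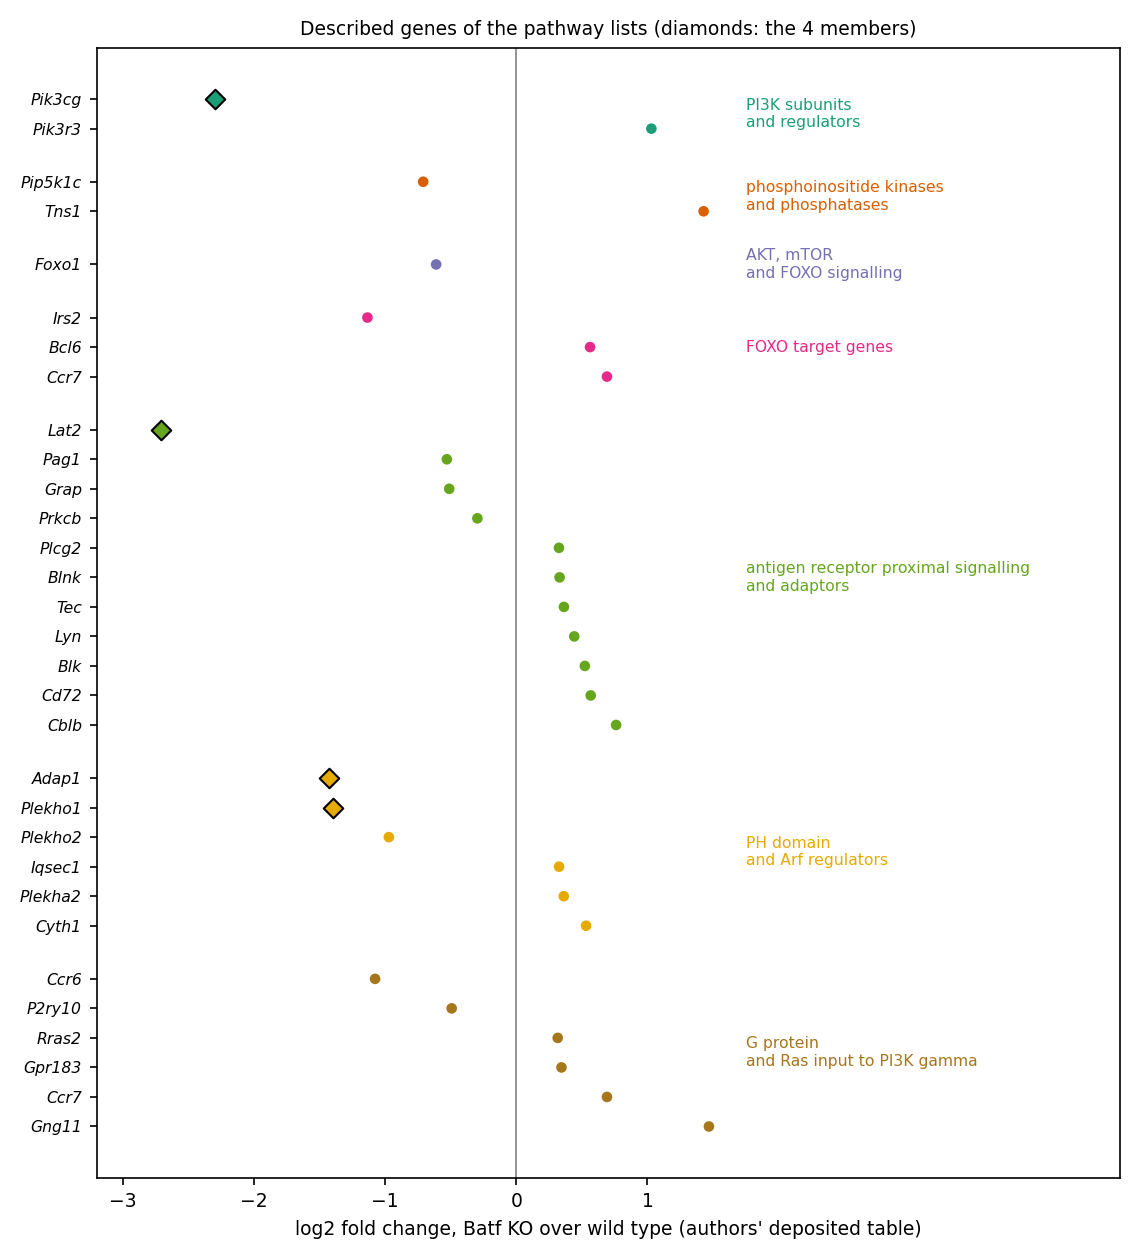
log2 fold change of Batf KO over wild type in the authors' deposited table (x axis) for the described genes of the 7 pathway lists (rows, coloured by list; Ccr7 is in 2 lists), with the 4 members as diamonds. Among the antigen receptor genes Lat2 lies at -2.71 while the others lie between -0.53 and 0.76.

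Lat2 and Pik3cg are also used by myeloid cells and mast cells, so markers of other cells that the columns could have let through were looked up. Of 12 monocyte and macrophage markers and of 9 neutrophil markers, 0 were listed. Of 8 mast cell and basophil markers only Kit was listed, higher at 0.97 to 1.86 CPM in Batf KO against 0.13 to 0.63 CPM in wild type. Of 8 dendritic cell markers only Zbtb46 was listed, higher at 73.6 to 89.6 CPM in Batf KO against 47.4 to 65.6 CPM in wild type. Of 14 T cell markers only Cd8b1 was listed, higher at 5.24 to 7.42 CPM in Batf KO against 1.48 to 2.59 CPM in wild type. Of 10 NK and innate lymphoid markers only Tbx21 was listed, lower at 0.19 to 0.46 CPM in Batf KO against 1.25 to 10.1 CPM in wild type. Of 10 erythroid and platelet markers only Pf4 was listed, higher at 0.76 to 1.04 CPM in Batf KO against 0.28 to 0.63 CPM in wild type. Of 6 plasma cell markers, Irf4 was higher at 1371 to 1566 CPM in Batf KO against 597 to 727 CPM in wild type. Prdm1 was lower at 5.20 to 6.75 CPM in Batf KO against at least 7.30 CPM in wild type. In RNA from a whole culture, these levels do not show whether the B cells themselves or other cells made these marker transcripts. With 3.81% of all tested genes listed, lists this short would often hold few or no listed genes, so these counts are not read. Summed marker levels cannot be formed from genes that have no value here, and the part of other cells in the levels of Lat2 and Pik3cg was not tested.

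Neighbouring genes were looked up to see whether a member lay among other listed genes. Of the protein-coding genes that start within 500 kb of a member, 0 of 22 were listed for Lat2, 0 of 4 for Pik3cg and 0 of 17 for Adap1. For Plekho1 it was 1 of 35, Mtmr11, a myotubularin family gene 166 kb away. Over all genes the authors tested, 3.81% were listed, so nothing is read from these counts. Mtmr11 had 25 reads in the Batf KO libraries together and 97 in the wild type libraries together, and was lower by 2.27-fold.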

How the data were processed

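Read counts per gene and CPM were measured in 7 libraries of splenic B cells. Per the file headers, the deposited table gives raw counts and the authors' CPM. Its comparison columns are the authors' p-value and FDR, a likelihood ratio score, and the fold change and mean CPM on a log2 scale. The build mm10 and the tools edgeR 3.03, HTSeq 0.5.3p7 and TopHat2 2.0.6 stand, without roles, in the submitters' processing notes. The sources used here do not give the strand setting or the treatment of reads from shared sequence. The highest FDR in the table is 0.0499, and FDR and p-value together show an adjustment over 19734 genes.

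Effective library sizes were recovered as count divided by CPM, and read numbers limit the precision of genes with few reads. The quasi-likelihood fit of edgeR 4.0.16 (R 4.3.3) was run on the counts of the 667 genes with a mean of at least 1 CPM, both groups sharing 1 design with no covariate. 85 genes fell below this filter. SE is the size of the log2 fold change divided by the square root of F. No p-value of this fit is given, because table and members were chosen on the same contrast. The fit was tested on simulated data before use. Counting error is the square root of the mean of 1 over the reads. DESeq2 1.42.0, limma 3.58.1, other library sizes, other filters and left-out libraries were tried as alternatives.

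The members and gene lists were chosen with earlier results of these data known. Named were the members, Batf, the listed genes of the lists (1 is counted but not reported here), the 3 likest genes of each member and listed neighbours. Replicates are numbered in accession order, each library was taken as 1 mouse, and what the 2 replicates mentioned in the design text are is not stated, so the spread may be partly technical. GENCODE M21 held 742 of the 752 identifiers. Sequences are from RefSeq.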

Additional observations from a re-analysis of the deposited data

How the results depend on the processing

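Each member was lower in Batf KO under each alternative run; since the groups do not overlap, leaving out libraries could not turn the direction. With 1 library left out, the log2 fold change ranged from -2.76 to -2.64 for Lat2, -2.39 to -2.20 for Pik3cg, -1.48 to -1.38 for Adap1 and -1.44 to -1.35 for Plekho1. On the log2 scale with a pseudocount, limma gave -2.54 for Lat2 with 1 CPM, and -2.04 and -1.85 for Pik3cg with 0.5 and 1 CPM, since a pseudocount draws low levels together. Lat2 was -2.87 without wild type replicates 1 and 2 and -2.52 without replicates 3 and 4, both chosen after seeing the data, and the cause was not tested. Other alternatives moved no member by more than the spread between replicates. With a cut of 0.01 on the authors' FDR, the 17 higher and 10 lower pathway genes became 9 and 9. They became 5 and 6 with a fold of at least 1.5, and 6 and 5 when the edgeR p was adjusted over 19734 genes. Each of these settings is stricter by construction. No paired analysis was possible because the replicate numbers follow accession order and pair no mice across genotypes. Depth limits Pik3cg in Batf KO, with 55 to 59 reads a library.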

Other observations

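Some genes of the pathway lists, chosen after their values were seen, split the wild type libraries into the same pairs as Lat2. These are replicates 1 and 2 and replicates 3 and 4. Pip5k1c and Cblb were higher in replicates 1 and 2, where Lat2 was lower. The genes that split this way were not counted. Pip5k1c was at 97.0 and 101 CPM in replicates 1 and 2 and at 76.1 and 75.8 CPM in replicates 3 and 4. Cblb was at 33.4 and 35.5 CPM in replicates 1 and 2 and at 22.8 and 24.5 CPM in replicates 3 and 4. Their Batf KO libraries were closer, at 52.7 to 54.4 CPM for Pip5k1c and 48.9 to 49.8 CPM for Cblb. The numbers in the sample titles split these libraries in the same way, and what separates them was not tested. Of 51 genes examined, 0 had a wild type library set off from the other 3 beyond the 95% critical value of Dixon's test, where chance gives about 2.55.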
